A study of Mus musculus with 10 samples.

Results

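Prdm1, Id2, Zeb2, Bcl6, Id3, Bach2 and Tox encode transcription factors and DNA-binding inhibitors that take part in the choice of an activated T cell between effector and follicular or memory fate. They were chosen by name, with earlier results of these data known. Every probe set annotated with 1 of these symbols alone was taken, whatever its value. This gave 18 probe sets of 7 genes, out of 45037 probe sets and 18193 genes on the array. Prdm1 and Id3 have 1 probe set each, Bcl6 has 2, Id2, Bach2 and Tox have 3 each, and Zeb2 has 5.

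By the account of the study, the RNA came from T cells of wild-type C57BL/6 spleens. It was measured on 10 Affymetrix Mouse430_2 whole-genome arrays, 2 for each of 5 groups. The sample labels also name a foxo1 status that differs between replicates of some groups. That label was set aside. CD4+ TEM and CD4+ memory cells were sorted on day 25 from naïve CD4+ T cells, and CD8+ TEM cells on the same day from naïve CD8+ T cells, after co-culture with IL-2 and γ-irradiated LMP1/2A+ B lymphoma cells given anew each week. Naïve CD4+ and naïve CD8+ T cells, sorted as TCRβ+ CD62L+ CD44- cells, were the references and were not cultured. The lymphoma lines carry LMP1 and LMP2A, 2 latent membrane proteins of Epstein-Barr virus, switched on by Cγ1-Cre in germinal center B cells of the donor mice and grown out in Rag2-/- hosts with or without γC, so this is a culture model with no virus. Differentiation, time in culture, IL-2 and contact with the lymphoma cells cannot be told apart in a comparison with naïve cells. The gate behind the memory arrays (the titles read d25CM), the age of the mice and the origin of the 2 replicates are not given in the sources used here, so the p-values speak of the spread among these arrays alone, which may be technical.

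As background, BLIMP1 (the product of Prdm1) and BCL6 repress each other's genes, and the balance between them is known to separate terminally differentiated effector cells from follicular helper and memory cells. ID2 and ID3 have no DNA-binding region of their own: they bind E proteins, which recognize the E-box CANNTG, and keep them off DNA. ZEB2 is an E-box-binding repressor that acts downstream of T-bet in terminal effector CD8+ cells, BACH2 competes with AP-1 factors at effector genes and restrains their transcription, and TOX is an HMG-box factor needed for CD4+ lineage development in the thymus and expressed in exhausted T cells.

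Promoter sequences are shown for 2 genes that were higher and 2 that were lower in TEM than in naïve cells, since the ID factors and ZEB2 act through E-boxes. Each is the 250 bases before a transcription start in RefSeq annotation of GRCm38.p6, written 5′ to 3′ on the strand of the gene, with E-boxes (CANNTG) in capitals. They lie at chr10:44458749-44458998 (minus strand, Prdm1), chr12:25096093-25096342 (minus strand, Id2), chr16:23988853-23989102 (minus strand, the first of 2 Bcl6 starts) and chr4:32417185-32417434 (plus strand, Bach2).
Prdm1 promoter: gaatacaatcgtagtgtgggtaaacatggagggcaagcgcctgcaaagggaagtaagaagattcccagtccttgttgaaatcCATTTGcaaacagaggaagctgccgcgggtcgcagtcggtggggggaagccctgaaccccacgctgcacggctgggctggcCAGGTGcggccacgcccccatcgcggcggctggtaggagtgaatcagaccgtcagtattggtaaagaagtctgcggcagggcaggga
Id2 promoter: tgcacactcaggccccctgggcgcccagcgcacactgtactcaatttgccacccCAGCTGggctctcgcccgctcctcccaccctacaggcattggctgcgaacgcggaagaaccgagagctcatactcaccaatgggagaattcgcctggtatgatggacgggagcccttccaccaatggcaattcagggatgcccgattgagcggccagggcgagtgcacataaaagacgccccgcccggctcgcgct
Bcl6 promoter: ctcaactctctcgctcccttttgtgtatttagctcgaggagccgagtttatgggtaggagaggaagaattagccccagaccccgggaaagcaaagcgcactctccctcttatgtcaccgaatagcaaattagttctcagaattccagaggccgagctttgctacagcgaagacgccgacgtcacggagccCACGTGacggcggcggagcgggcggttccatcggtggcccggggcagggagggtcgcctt
Bach2 promoter: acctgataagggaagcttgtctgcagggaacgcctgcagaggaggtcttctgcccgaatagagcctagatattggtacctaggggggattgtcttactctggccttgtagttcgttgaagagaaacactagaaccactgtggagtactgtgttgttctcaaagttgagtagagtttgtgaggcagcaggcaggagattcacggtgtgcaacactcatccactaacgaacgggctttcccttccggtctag
The table holds 10 such windows for 6 of the 7 genes (4 for Zeb2, 2 for Bcl6), and Tox is named only. An E-box was found in 3 of the 10 windows, against 66.2% of 32851 promoters of the same length. The Prdm1 window holds 2 of them, and one is CAGGTG, the E-box form that ZEB factors bind, which is a subset of CANNTG and occurs in 17.2% of the promoters. GAAAGT, a core of the BLIMP1 binding sequence, was found in 3 windows (2 overlapping Zeb2 windows and the second Bcl6 window) against 12.3% of promoters. TGANTCA, a form wider than the AP-1 and BACH2 core TGA(C/G)TCA, was found in 2 windows (Prdm1 and 1 of Zeb2) against 6.75%. The Prdm1 match reads TGAATCA, which is not that core, and the Zeb2 matches read TGAGTCA and TGACTCA. Both strands were searched. These are matches of letters, and no binding was measured.

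Values are RMA values on the log2 scale, so a difference of 1 is a 2-fold difference, and they are compared between groups for 1 probe set at a time. The array medians lay between 4.65 and 4.75. The deposited table used here has no detection calls, and values under 6 are called dim, since at that level RMA compresses differences. Of the 18 probe sets, 11 had a group mean of 6 or more, and 7 were dim in every group, among them all 5 of Zeb2. All 6 measured T cell markers were above 6 on every array. Cd4 averaged 11.73 ± 0.12 in CD4+ TEM, 11.56 ± 0.07 in CD4+ memory and 11.88 ± 0.01 in naïve CD4+ cells, against 6.70 ± 0.27 in CD8+ TEM and 4.20 ± 0.14 in naïve CD8+ cells (SD, n = 2 each). Cd8b1, a chain of the CD8 co-receptor, averaged 10.99 ± 0.01 in CD8+ TEM and 11.27 ± 0.38 in naïve CD8+ cells, and 5.09 to 5.47 in the CD4+ groups. Cd8a, the other CD8 chain, read 7.67 and 8.17 in CD4+ TEM cells, against 3.93 and 5.38 in CD4+ memory and 5.16 and 4.99 in naïve CD4+ cells, and was higher in CD4+ TEM than in naïve CD4+ cells by 2.85 (SE 0.41, limma adjusted p = 0.0018). It read 12.92 and 12.81 in CD8+ TEM and 12.85 and 12.98 in naïve CD8+ cells. Cd4 in turn was higher in CD8+ TEM than in naïve CD8+ cells by 2.50 (SE 0.17, adjusted p = 2.82e-05). The part of cells of the other subset in the results was not tested.

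Other measures also moved with the culture. The Gapdh control probe sets, a sign of RNA quality, had a 3′ signal above the 5′ signal by 0.91 to 1.72 in cultured cells and by 2.42 to 2.75 in naïve cells, on the log2 scale. The same measure of Actb did not separate them, with 0.77 to 2.10 in cultured and 1.24 to 2.13 in naïve cells. Of 12 measured B lineage markers, 5 were called higher in each cultured group than in its naïve reference, none lower in CD4+ TEM cells and 1 lower in each of the other groups. Their summed level was 11.31 to 11.57 in CD4+ TEM, 11.79 to 12.21 in CD4+ memory, 11.53 to 11.77 in CD8+ TEM, 10.03 to 10.13 in naïve CD4+ and 9.87 to 10.74 in naïve CD8+ cells. Most of the naïve CD4+ sum came from Pou2af1 (9.86 and 9.75), so the sums understate the rise of the called markers. Cd79b, for example, rose by 4.24 in CD4+ TEM, 4.40 in CD4+ memory and 1.27 in CD8+ TEM cells. Ebf1, an early B lineage factor, read 10.19 to 10.82 on the cultured arrays, against 2.93 to 5.56 on the naïve ones. By contrast, Pax5, which defines the B lineage, read 3.58 to 4.33 on every array. Of 5 plasma cell markers, 3 were higher in each cultured group, Mzb1 among them, with 7.48 to 9.51 on cultured arrays and 3.07 to 3.90 on naïve arrays. Prdm1, Bcl6, Bach2 and Tcf4 are also transcribed in B lineage cells, and the part of such cells in the results was not tested. Naïve CD8+ replicate 2 stood apart, with 7.02 for Ms4a1, 8.36 for Jchain and 8.70 for Lyz2, against 3.15, 5.15 and 5.20 on naïve CD8+ replicate 1. Leaving it out changed none of the calls of the brightest probe sets in CD8+ TEM against naïve CD8+ cells. Other genes ran the opposite way between these 2 arrays. Naïve CD8+ replicate 1 read 10.95 for Nr4a2, 11.91 for Nr4a3 and 7.50 for Ifng, against 4.06, 9.04 and 3.40 on naïve CD8+ replicate 2. The naïve CD8+ arrays thus differed in both directions, and which of them is the less usual was not tested. In such bulk samples, fewer cells of a type and less RNA per cell cannot be told apart.

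**Figure D1:**
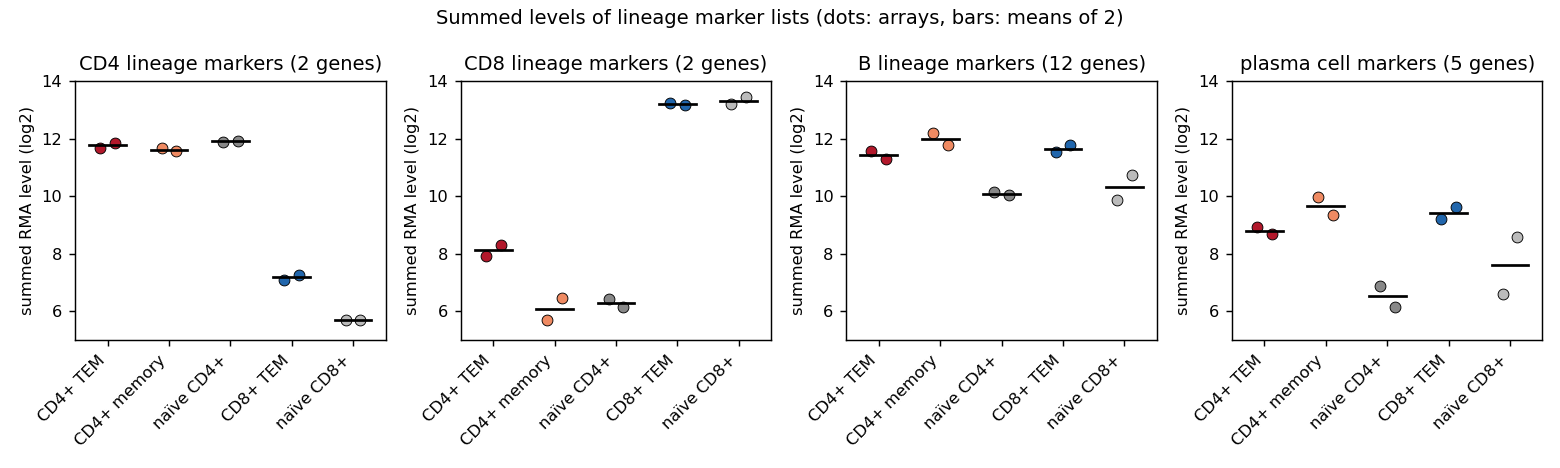
Summed RMA level (log2) of 4 marker lists on each array (dots), with the mean of 2 arrays as a bar, for CD4+ TEM, CD4+ memory, naïve CD4+, CD8+ TEM and naïve CD8+ cells. CD4 and CD8 markers are highest in the groups of that label, with CD8 markers at 7.92 and 8.32 on the CD4+ TEM arrays, against 5.71 to 6.48 on the other CD4+ arrays, and CD4 markers at 7.09 and 7.28 on the CD8+ TEM arrays, against 5.71 and 5.72 on the naïve CD8+ arrays. B lineage and plasma cell markers are higher on the cultured arrays than on the naïve CD4+ arrays, with naïve CD8+ replicate 2 above naïve CD8+ replicate 1.

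Expression of the effector factors was examined first. Prdm1 read 8.35 and 8.70 in CD4+ TEM cells, 7.82 and 8.22 in CD4+ memory cells and 9.25 and 8.91 in CD8+ TEM cells. In the references it was dim, at 5.79 and 5.81 in naïve CD4+ and 5.26 and 5.86 in naïve CD8+ cells. Every cultured array lay above every naïve array. Prdm1 rose 6.59-fold in CD4+ TEM cells (log2 fold change 2.72, SE 0.25, limma adjusted p = 0.000198), 4.65-fold in CD4+ memory cells (2.22, adjusted p = 0.000748) and 11.5-fold in CD8+ TEM cells (3.52, adjusted p = 3.43e-05), each against its naïve cells. The order of the group means was CD8+ TEM, CD4+ TEM, CD4+ memory, naïve CD4+ and naïve CD8+. Within the cultured and within the naïve groups, the gaps between neighbors in this order did not pass the test. CD8+ TEM and CD4+ memory cells, whose arrays did not overlap, were not tested against each other.

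Id2, the ID factor of effector cells, was bright in all groups. Its brightest probe set (1435176_a_at) read 12.21 and 12.19 in CD4+ TEM, 12.13 and 12.27 in CD4+ memory and 12.08 and 12.07 in CD8+ TEM cells, against 11.16 and 11.05 in naïve CD4+ and 11.38 and 10.91 in naïve CD8+ cells. These are rises of 1.10 (SE 0.18, adjusted p = 0.00302), 1.10 (adjusted p = 0.00375) and 0.93 (adjusted p = 0.00437) on the log2 scale. The 6 cultured arrays lay within 12.07 to 12.27 on this probe set, above all naïve arrays. The second probe set (1422537_a_at) had a wider range: it read 11.60 and 11.52 in CD4+ TEM, 10.53 and 10.71 in CD4+ memory and 11.83 and 11.84 in CD8+ TEM cells, against 9.02 and 9.33 in naïve CD4+ and 9.57 and 9.22 in naïve CD8+ cells. It rose by 2.38 in CD4+ TEM (adjusted p = 6.72e-05), 1.45 in CD4+ memory (adjusted p = 0.00107) and 2.44 in CD8+ TEM cells (adjusted p = 3.64e-05). The third (1453596_at), at 5.89 to 7.82 over the arrays, was called in none of the 7 comparisons.

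Zeb2 was dim throughout, and the statements on it rest on 1 probe set (1434298_at). It read 5.15 and 5.21 in CD4+ TEM and 4.16 and 4.74 in CD8+ TEM cells. In CD4+ memory cells it read 2.69 and 2.74, against 3.01 and 2.58 in naïve CD4+ and 2.18 and 3.28 in naïve CD8+ cells. The TEM arrays of both subsets lay above all others, and the memory arrays lay within the range of the naïve ones. Zeb2 rose by 2.39 in CD4+ TEM cells (SE 0.35, adjusted p = 0.00209) and by 1.72 in CD8+ TEM cells (adjusted p = 0.00676). Without CD8+ TEM replicate 2 the CD8+ call was lost (1.43, adjusted p = 0.0552). In CD4+ memory cells the difference was -0.08 (95% interval -0.90 to 0.74). Of the other 4 probe sets, with group means of 2.17 to 3.10, 2 were called higher in CD4+ TEM cells (0.93, adjusted p = 0.0421, and 0.47, adjusted p = 0.0453), with both calls lost without any 1 of at least 5 arrays, and none in the other comparisons.

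**Figure D2:**
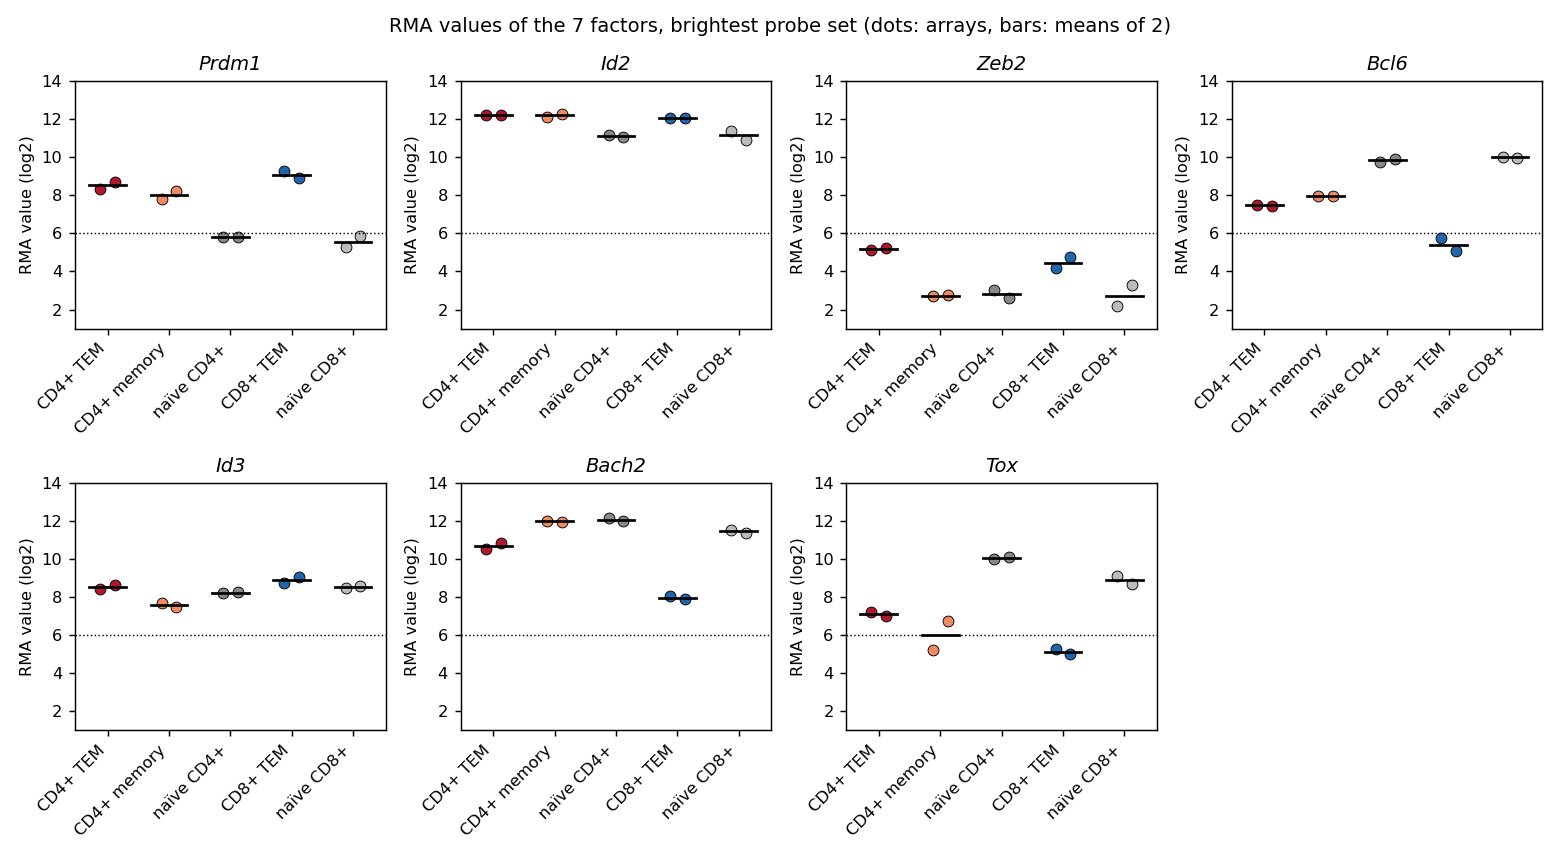
RMA value (log2) of the brightest probe set of each of the 7 factors on each array (dots), with the mean of 2 arrays as a bar and values under 6, called dim, below the dotted line. Prdm1 and Id2 are higher on all 6 cultured arrays than on the naïve ones, Bcl6 and Tox are lower on all 6, Zeb2 is above the rest on the 4 TEM arrays, and Bach2 is lowest on the 2 CD8+ TEM arrays.

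The factors of the follicular and memory side were then compared. Bcl6 (1421818_at) read 7.47 and 7.46 in CD4+ TEM, 7.96 and 7.98 in CD4+ memory and 5.75 and 5.05 in CD8+ TEM cells, against 9.74 and 9.92 in naïve CD4+ and 10.01 and 9.98 in naïve CD8+ cells. The 3 cultured groups were below both naïve groups without overlap, and the CD8+ TEM arrays were dim. Group levels ran from naïve CD8+ over naïve CD4+, CD4+ memory and CD4+ TEM to CD8+ TEM cells, and the first and the third of these steps (0.17 and 0.51) did not pass the test. Bcl6 was 5.14-fold lower in CD4+ TEM (log2 fold change -2.36, SE 0.22, adjusted p = 0.000198), 3.62-fold lower in CD4+ memory (-1.86, adjusted p = 0.000895) and 24.2-fold lower in CD8+ TEM cells (-4.60, adjusted p = 6.01e-06). The dim second probe set (1450381_a_at) was called in CD8+ TEM cells only (-0.82, adjusted p = 0.0131), and it lost this call without either CD8+ TEM array or without naïve CD8+ replicate 1.

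Bach2 was lower than in naïve cells in TEM cells of both subsets and did not pass the test in CD4+ memory cells. Its brightest probe set (1437667_a_at) read 10.51 and 10.82 in CD4+ TEM, 11.98 and 11.96 in CD4+ memory and 8.04 and 7.90 in CD8+ TEM cells, against 12.13 and 12 in naïve CD4+ and 11.52 and 11.37 in naïve CD8+ cells. It was 2.64-fold lower in CD4+ TEM (-1.40, SE 0.16, adjusted p = 0.000549) and 11.1-fold lower in CD8+ TEM cells (-3.48, adjusted p = 4.96e-06). In CD4+ memory cells the difference was -0.10 (95% interval -0.46 to 0.27, adjusted p = 0.75). The other 2 probe sets gave the same calls: 1436515_at differed by -1.18 in CD4+ TEM, -0.09 in CD4+ memory and -3.85 in CD8+ TEM cells, and 1445460_at by -2.13, -0.56 and -2.84 in that order. The third read 7.07 and 8.19 on the 2 CD4+ TEM arrays, further apart than the brightest. Group levels on the brightest probe set ran from naïve CD4+ over CD4+ memory, naïve CD8+ and CD4+ TEM to CD8+ TEM cells, in steps of 0.10, 0.52, 0.78 and 2.69.

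Id3, the ID factor of naïve, memory and follicular cells, differed from naïve cells by less than 2-fold in every cultured group. It read 8.42 and 8.65 in CD4+ TEM, 7.69 and 7.46 in CD4+ memory and 8.74 and 9.05 in CD8+ TEM cells, against 8.21 and 8.25 in naïve CD4+ and 8.49 and 8.59 in naïve CD8+ cells. The memory arrays were the lowest of the 10. The differences of 0.30 in CD4+ TEM (95% interval -0.09 to 0.70, adjusted p = 0.27) and 0.35 in CD8+ TEM cells (-0.04 to 0.75, adjusted p = 0.166) did not pass the test. In CD4+ memory cells Id3 fell by 0.66 on the log2 scale (SE 0.17, adjusted p = 0.0303), a call that was lost without CD4+ memory replicate 2 (adjusted p = 0.12) and without either naïve CD4+ array (0.107 and 0.129).

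Tox was lower in every cultured group. Its brightest probe set (1425484_at) read 7.20 and 7.0 in CD4+ TEM, 5.24 and 6.75 in CD4+ memory and 5.26 and 4.99 in CD8+ TEM cells, against 10.01 and 10.09 in naïve CD4+ and 9.12 and 8.69 in naïve CD8+ cells. The memory replicates were far apart (SD 1.07) and reached the range of the CD8+ TEM arrays at their lower end, while all cultured arrays lay below all naïve ones. Tox was 7.71-fold lower in CD4+ TEM (-2.95, SE 0.43, adjusted p = 0.00183), 16.6-fold lower in CD4+ memory (-4.05, adjusted p = 0.000522) and 13.7-fold lower in CD8+ TEM cells (-3.78, adjusted p = 0.000319). The 2 dimmer probe sets were called lower in the same 3 comparisons, by 1.26 to 2.57 on the log2 scale.

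Counted by the brightest probe set, 3 of the 7 genes were higher (Prdm1, Id2, Zeb2) and 3 lower (Bcl6, Bach2, Tox) in CD4+ TEM than in naïve CD4+ cells, where 25.1% of 18193 genes were called (15.6% higher and 9.5% lower). The same 3 genes were higher and the same 3 lower in CD8+ TEM than in naïve CD8+ cells, where 36.3% of genes were called (20.0% higher and 16.4% lower). In CD4+ memory against naïve CD4+ cells, 2 were higher (Prdm1, Id2) and 3 lower (Bcl6, Id3, Tox), where 21.5% were called (12.5% higher and 8.98% lower). The members were chosen with earlier results of these data known, so their counts beside these shares are a description only. The 3 comparisons are not independent. The TEM and memory changes of CD4+ cells share the naïve CD4+ arrays, and all of them share 1 estimate of the spread. The median change over the 7 genes was 0.30, 0.35 and -0.10 in CD4+ TEM, CD8+ TEM and CD4+ memory cells, and over all genes 0.02, 0.06 and 0.08. The naïve groups differed for Bach2 alone by this count, with 18.5% of genes called (12.9% higher and 5.57% lower in naïve CD8+ cells). It was lower in naïve CD8+ than in naïve CD4+ cells by 0.62 on the log2 scale (adjusted p = 0.0338), while its second probe set read 0.31 higher in naïve CD8+ cells (adjusted p = 0.371), and the call was lost without any 1 of the naïve or CD8+ TEM arrays.

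**Figure D3:**
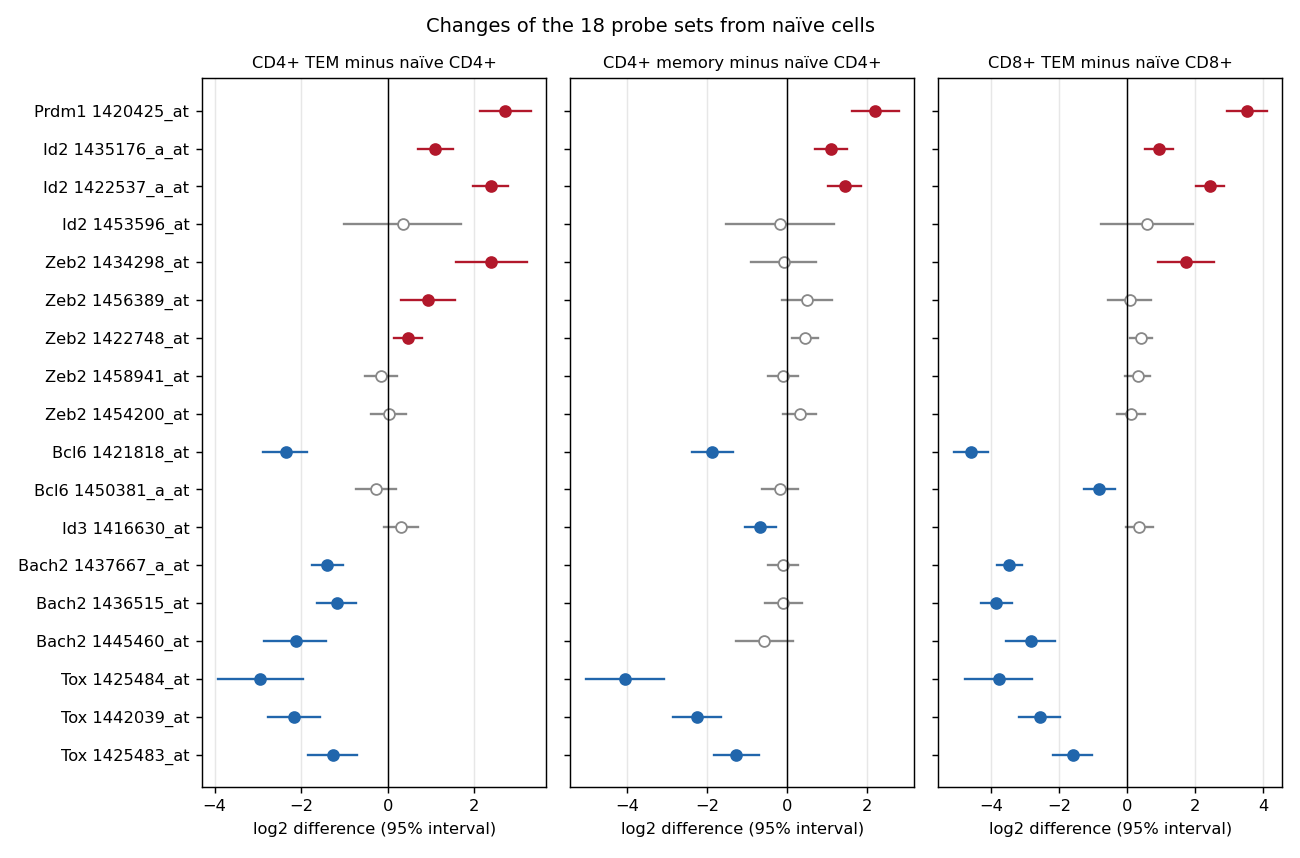
Log2 difference from naïve cells (dot) with its 95% interval (line) for the 18 probe sets in CD4+ TEM, CD4+ memory and CD8+ TEM cells, each against naïve cells of its subset; red marks a higher call, blue a lower call and an open gray dot no call. Bach2 has 3 lower calls in each TEM panel and none in the memory panel, and Zeb2 has higher calls in the TEM panels only.

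The comparison of CD4+ TEM with CD4+ memory cells asks which factors separate the 2 populations sorted from the day 25 cultures. By the brightest probe set, Zeb2 and Id3 were higher and Bach2 was lower in TEM than in memory cells, 3 of 7 genes, where 4.39% of genes were called (3.18% higher and 1.21% lower). Zeb2 was 5.53-fold higher (log2 fold change 2.47, SE 0.35, adjusted p = 0.0105), and Id3 was 1.94-fold higher (0.96, SE 0.17, adjusted p = 0.0244). Without either CD4+ TEM array both of these calls were lost, with adjusted p of 0.0601 and 0.0639 for Zeb2 and 0.0672 and 0.13 for Id3. The Id3 call was also lost without CD4+ memory replicate 2 (adjusted p = 0.0692) and without either naïve CD4+ array (0.0519 each). Averaged over its 5 probe sets, Zeb2 differed by 0.51 (adjusted p = 0.1). Bach2 was 2.47-fold lower (-1.30, SE 0.16, adjusted p = 0.0051), with calls on all 3 of its probe sets (-1.10, adjusted p = 0.0254, and -1.57, adjusted p = 0.0369) and on the brightest one whichever array was left out. That call was lost when only the arrays of these 2 groups were fitted (adjusted p = 0.114), where Zeb2 kept its call. The calls on the other 2 were lost without any 1 of 6 and of 8 arrays. The second Id2 probe set was higher by 0.93 (adjusted p = 0.0314, lost without any 1 of 5 arrays), whereas the brightest differed by -0.01 (95% interval -0.41 to 0.40). Cd8a moved with this comparison too, higher in TEM than in memory cells by 3.26 (SE 0.41, adjusted p = 0.00601), and its part in these results was not tested.

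Prdm1 and Bcl6 did not pass the test between CD4+ TEM and memory cells, with differences of 0.50 (95% interval -0.08 to 1.08, adjusted p = 0.354) and -0.51 (-1.01 to 0.00, adjusted p = 0.283), although the arrays of the 2 groups did not overlap for either gene. Tox differed by 1.10 (0.12 to 2.09, adjusted p = 0.235), and without CD4+ memory replicate 2, its higher memory value, by 1.86 (adjusted p = 0.00941).

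CD4+ and CD8+ cells were compared by the difference between their changes, a test of the interaction. Bcl6 and Bach2 changed unequally, 2 of 7 genes and both with the higher value in CD4+ cells, where 6.73% of genes were called in that direction. The fall of Bcl6 was smaller in CD4+ than in CD8+ cells by 2.23 on the log2 scale (SE 0.31, adjusted p = 0.0071), and that of Bach2 by 2.08 (SE 0.22, adjusted p = 0.00302) on the brightest and 2.67 (SE 0.28, adjusted p = 0.00272) on the second probe set. The third Bach2 probe set differed by 0.71 (95% interval -0.31 to 1.72) and the dim second Bcl6 probe set by 0.55 (-0.09 to 1.19). Neither passed the test. For the other genes the interaction did not pass: -0.80 for Prdm1 (-1.62 to 0.02), 0.17 for Id2 (-0.41 to 0.74), 0.67 for Zeb2 (-0.49 to 1.83), -0.05 for Id3 (-0.61 to 0.50) and 0.83 for Tox (-0.56 to 2.23). These intervals leave room for differences of over 2-fold for Prdm1, Zeb2 and Tox.

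Set directly against each other, CD4+ TEM cells had more Bcl6 than CD8+ TEM cells (4.18-fold, log2 2.06, SE 0.22, adjusted p = 0.00337), more Bach2 (6.48-fold, 2.69, adjusted p = 0.000367) and more Tox (3.92-fold, 1.97, adjusted p = 0.0387), 3 of 7 genes, where 5.28% of genes were called (2.09% higher and 3.19% lower). The Tox call was lost without any 1 of the TEM or naïve arrays. The second Tox probe set (1442039_at), dim in both TEM groups, was also higher, by 1.25 (adjusted p = 0.0335). It lost this call without any 1 of the TEM arrays. The third (1425483_at), dim in every group, differed by 0.45 (adjusted p = 0.394). Between the starting cells, Tox differed by -1.14 in naïve CD8+ against naïve CD4+ cells (-2.12 to -0.15, adjusted p = 0.122). Its arrays did not overlap there, and its interaction did not pass. The dim second Bcl6 probe set differed by 0.52 between the TEM groups (0.06 to 0.97, adjusted p = 0.198). None of the 7 was called lower in CD4+ TEM cells. Prdm1 differed by -0.56 (-1.14 to 0.02), Id3 by -0.36 (-0.75 to 0.03), Id2 by 0.12 (-0.28 to 0.53) and Zeb2 by 0.73 (-0.09 to 1.55).

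**Figure D4:**
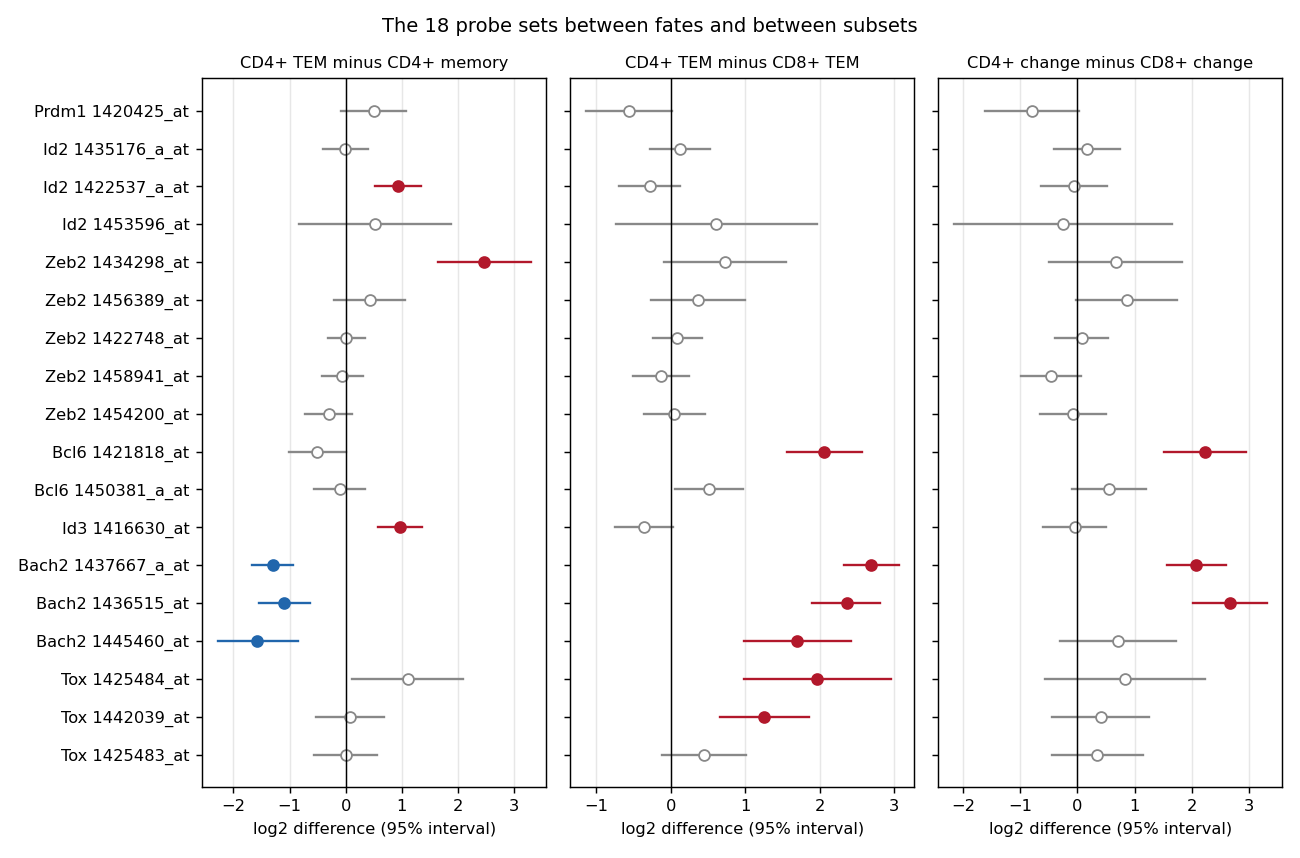
Log2 difference (dot) with its 95% interval (line) for the 18 probe sets in CD4+ TEM minus CD4+ memory cells, CD4+ TEM minus CD8+ TEM cells, and the CD4+ change minus the CD8+ change from naïve cells, colored by call as before. Bach2 is lower in TEM than in memory cells on 3 probe sets and higher in CD4+ than in CD8+ TEM cells on the same 3.

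Genes that work with these factors were followed as lists. Of the 5 E proteins and other ID genes, 1 was higher (Tcf4) and 1 lower (Tcf12) in each of CD4+ TEM, CD8+ TEM and CD4+ memory cells against naïve cells, with medians of 0.23, 0.16 and 0.13. Tcf4, which encodes the E protein E2-2, rose by 3.11 in CD4+ TEM (adjusted p = 7.56e-06), 4.05 in CD8+ TEM (adjusted p = 1.92e-06) and 2.82 in CD4+ memory cells (adjusted p = 1.71e-05). Tcf12, which encodes HEB, fell by 0.66, 1.13 and 0.92 on the log2 scale in that order, and its CD4+ TEM call was lost without either CD4+ TEM array or naïve CD4+ replicate 1. Of 9 measured relatives and partners of BLIMP1, BCL6 and BACH2, none was higher and 2 lower in CD4+ TEM, 1 higher and 5 lower in CD8+ TEM, and 1 higher and 1 lower in CD4+ memory cells, with medians of -0.61, -1.20 and -0.19. Bach1, the closest relative of Bach2, read 10.11 and 10.02 in CD4+ TEM, 11.06 and 10.99 in CD4+ memory and 9.52 and 9.60 in CD8+ TEM cells, against 10.98 and 10.91 in naïve CD4+ and 11.01 and 10.87 in naïve CD8+ cells. It fell by 0.88 in CD4+ TEM (adjusted p = 0.00229) and 1.38 in CD8+ TEM cells (adjusted p = 0.000149), and it was lower in CD4+ TEM than in memory cells by 0.96 (adjusted p = 0.00889, or 0.0585 without CD4+ TEM replicate 2). Nfe2l2, which encodes the CNC factor NRF2, fell by 1.32 in CD4+ TEM (adjusted p = 0.0112) and 1.59 in CD8+ TEM cells (adjusted p = 0.00316), and its CD4+ call was lost without CD4+ TEM replicate 1 or either naïve CD4+ array.

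Of 6 ZEB relatives and partners, 1 was higher and 2 lower in CD4+ TEM, 1 higher and 2 lower in CD8+ TEM, and 3 higher and 2 lower in CD4+ memory cells, with medians of -0.24, -0.36 and -0.04. Tbx21, which encodes T-bet, was among the higher ones each time, by 4.11 in CD4+ TEM (adjusted p = 0.000279), 2.39 in CD8+ TEM (adjusted p = 0.00257) and 4.05 in CD4+ memory cells (adjusted p = 0.000413). Of 8 TOX relatives, NFAT and NR4A genes, 2 were higher and 2 lower in CD4+ TEM, 1 higher and 1 lower in CD8+ TEM, and 2 higher and 2 lower in CD4+ memory cells, with medians of 0.02, -0.95 and -0.46. The naïve CD8+ arrays were far apart for Nr4a1, Nr4a2 and Nr4a3 (SD 3.75, 4.88 and 2.03), which limits the CD8+ count and median. Nfatc1, an NFAT factor of T cell receptor signaling, fell by 1.87 in CD8+ TEM cells (adjusted p = 0.000246). Its fall by 1.0 in CD4+ TEM cells (adjusted p = 0.00855) was -0.25 when its probe sets were averaged (adjusted p = 0.54), and the call was lost without CD4+ TEM replicate 1 or naïve CD4+ replicate 1.

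The genes that mark the fates moved as well. Of 12 terminal effector associated genes, 8 were higher and 1 lower in CD4+ TEM, 7 higher and 1 lower in CD8+ TEM, and 6 higher and 1 lower in CD4+ memory cells, with medians of 4.0, 2.81 and 1.18. Gzmb, which encodes granzyme B, rose by 9.40, 8.11 and 8.19 in that order (adjusted p = 7.38e-07, 7.96e-07 and 1.39e-06). The lower gene was Prf1, which encodes perforin, each time (log2 fold changes of -1.26, -1.80 and -1.11, chosen after its values were seen), and its CD4+ calls were lost without any 1 of 4 arrays in TEM and of 3 in memory cells. Gzma, which encodes granzyme A, read 12.54 and 12.24 in CD4+ TEM, 3.99 and 4.18 in CD4+ memory and 11.73 and 11.65 in CD8+ TEM cells, against 5.68 and 5.60 in naïve CD4+ and 3.20 and 6.63 in naïve CD8+ cells, and thus was high on the 4 arrays on which Zeb2 was highest. Between CD4+ TEM and memory cells, 5 of the 12 were higher and none lower. Gzma was higher by 8.30 (SE 0.88, adjusted p = 0.00281) and Ifng, the gene of interferon-γ, by 5.41 (SE 1.05, adjusted p = 0.0344). Ifng read 10.22 and 10.06 in CD4+ TEM and 4.67 and 4.80 in CD4+ memory cells, and the difference was 5.33 to 5.49 in every alternative fit. The Ifng call was lost without any 1 of 8 arrays. The naïve CD8+ arrays, at 7.50 and 3.40, are part of the shared estimate of the spread.

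Of 14 measured memory associated genes, 2 were higher and 9 lower in CD4+ TEM, none higher and 10 lower in CD8+ TEM, and 2 higher and 5 lower in CD4+ memory cells, with medians of -0.88, -1.85 and -0.29. None was higher and 4 were lower in CD4+ TEM than in memory cells (median -0.61). Klf2, a factor of quiescence and lymph node homing, read 5.92 and 6.74 in CD4+ TEM and 4.74 and 4.97 in CD8+ TEM cells, against 8.40 and 8.98 in CD4+ memory, 9.55 and 9.67 in naïve CD4+ and 10.62 and 10.58 in naïve CD8+ cells. It was lower in CD4+ TEM than in memory cells by 2.36 on the log2 scale (adjusted p = 0.00565), and S1pr1, which encodes a receptor for exit from lymphoid organs, by 2.26 (adjusted p = 0.00126). Eomes, a T-box factor of memory and cytotoxic cells, was higher than in naïve CD4+ cells in CD4+ TEM (2.85, adjusted p = 0.000602) and in CD4+ memory cells (4.84, adjusted p = 5.82e-05). In CD8+ TEM cells it ran the other way, at 6.23 and 6.43, against 8.70 and 9.02 in naïve CD8+ cells (-2.53, adjusted p = 0.000641, a value given after it was seen). It was lower in CD4+ TEM than in memory cells by 1.99 (adjusted p = 0.0187), a call lost without CD4+ TEM replicate 1 or CD4+ memory replicate 1.

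**Figure D5:**
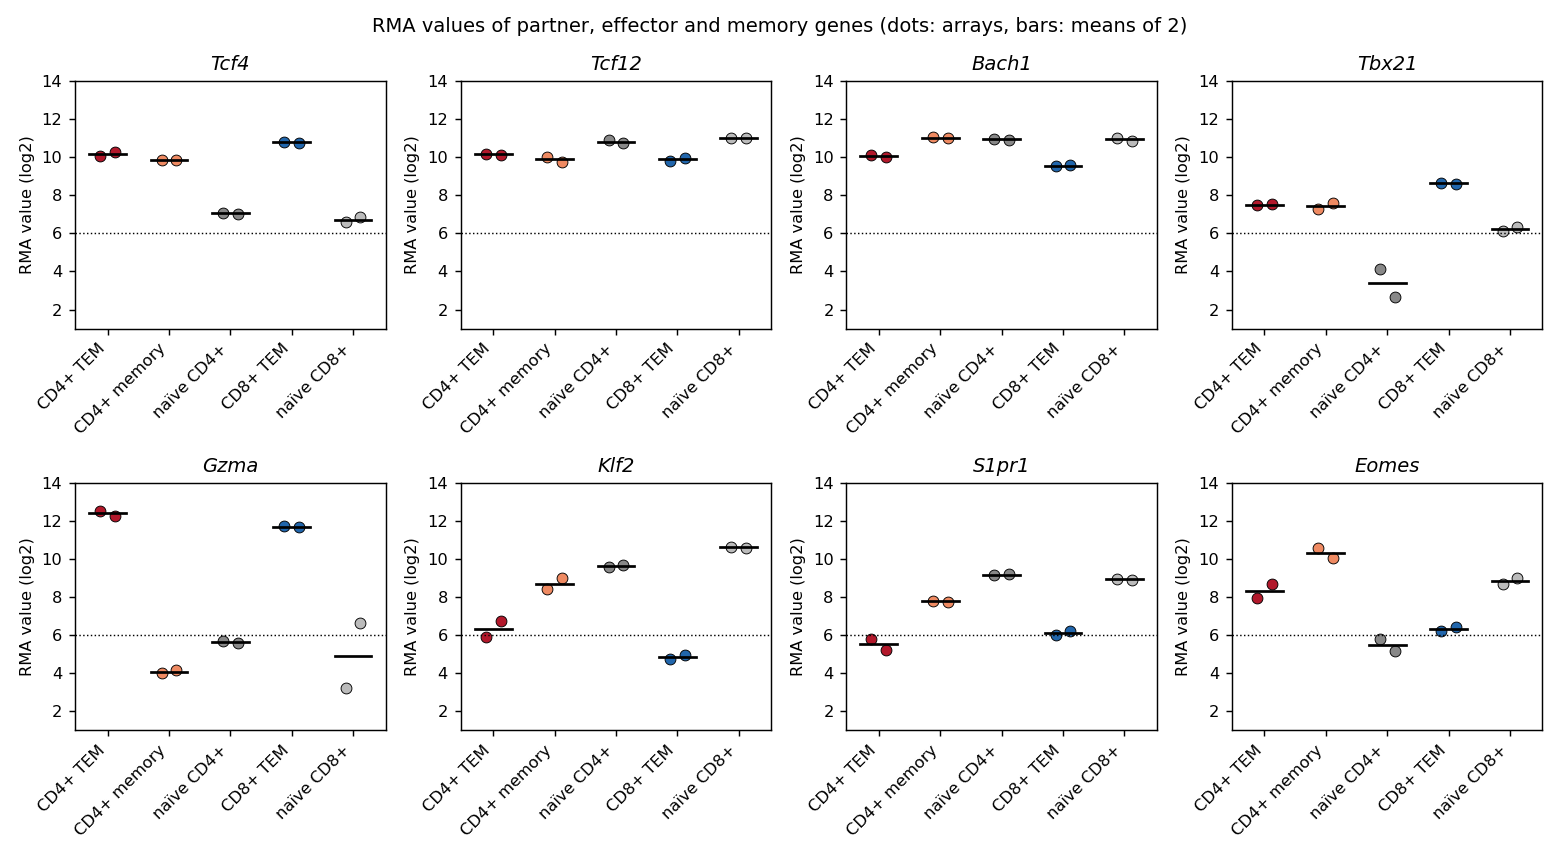
RMA value (log2) of 8 partner, effector and memory genes on each array (dots), with the mean of 2 arrays as a bar and values under 6, called dim, below the dotted line. Tcf4 and Tbx21 are higher in the cultured groups than in naïve cells of the same subset, Gzma is highest on the 4 TEM arrays, and Bach1, Klf2 and S1pr1 are lower on the 4 TEM arrays than on the other 6.

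Among 10120 genes with a group mean of 6 or more, those whose pattern over the 10 arrays was most like that of a member were named by Pearson's r, given as a description. The arrays fall into 5 groups of 2, so r follows the group levels and not the spread within a group. The closest to Prdm1 were Tspan31 (0.993), Tcf4 and Sil1 (0.992 each), and to Id2 Vegfa (0.992), Higd1a (0.989) and AA467197 (0.988). For Zeb2 they were Gzma (0.969), Nlrx1 (0.968) and Cd244a (0.964), and for Bcl6 Fyn (0.994), Msl1 (0.988) and Stk4 (0.984). For Bach2 they were Phf20l1 (0.99), Satb1 and Foxp1 (0.988 each), for Tox Rftn1 (0.981), Zfp518a (0.979) and Map7 (0.975), and for Id3, the member with the weakest matches, Gemin5 (0.962), Cct3 (0.957) and Tmem39a (0.956).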

How the data were processed

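RNA of sorted T cells was profiled on Affymetrix Mouse430_2 arrays. The authors normalized the signals with RMA in BRB-ArrayTools (version not given in the sources used here), and the deposited table holds log2 values, not mean-centered. Of 45101 probe sets, 64 controls were left out. Gene symbols were those of the platform's annotation: 34945 probe sets had 1 symbol, 932 had several, 9160 were unnamed here, and 34741 symbols were updated through their Entrez identifiers. A gene was represented by its probe set of highest mean over the 10 arrays.

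limma 3.58.1 (R 4.3.3) was fitted to all probe sets and arrays with 5 group means (5 residual degrees of freedom), moderated by empirical Bayes, with p-values adjusted by Benjamini-Hochberg over 45037 probe sets. A call is an adjusted p under 0.05, and intervals are unadjusted 95% intervals. The fit was checked on simulated data. The number of arrays limits the precision.

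Groups were taken from titles and source names. Labels that do not match the T cell titles and source names (germinal center B cells, foxo1 status, an edited lymphoma line in the design text) were set aside. The labelled foxo1 status differs between replicates of some groups, and its part in the results was not tested. Genes named are all members, up to 4 called genes with the largest change of each list in a comparison, markers, and the 3 genes most like each member. Members and lists were chosen with earlier results of these data known. Alternatives left out each array, added a replicate block, tested 1 value a gene (brightest probe set or mean), filtered dim or unvarying probe sets, repeated quantile normalization, changed the variance model, or fitted only the arrays compared. Replicate numbers were not taken to pair the samples, though a shared origin of same-numbered arrays is not excluded.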

Additional observations from a re-analysis of the deposited data

Results flagged for a closer look

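In an interaction test, the change from naïve to TEM cells differed between CD4+ and CD8+ cells for 3 of the 18 probe sets. Over the whole array, 3545 of 45037 probe sets were called in the same test. For Bcl6 (1421818_at) the change was -2.36 in CD4+ TEM and -4.60 in CD8+ TEM cells, a difference of 2.23 (SE 0.31, limma adjusted p = 0.0071). For Bach2 it was -1.40 in CD4+ TEM and -3.48 in CD8+ TEM cells on 1437667_a_at, a difference of 2.08 (adjusted p = 0.00302), and -1.18 in CD4+ TEM and -3.85 in CD8+ TEM cells on 1436515_at, a difference of 2.67 (adjusted p = 0.00272). These 3 calls held in every alternative fitted. The CD8+ TEM arrays read 5.75 and 5.05 for Bcl6 (1421818_at), in the dim range where RMA compresses differences. The dim second Bcl6 probe set (1450381_a_at) was not called in this test (0.55, adjusted p = 0.311).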

How the results depend on the processing

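Each result was recomputed under 18 alternatives. Of 66 results of members (called ones, and the brightest probe sets of all comparisons but that of the naïve groups), 45 kept their call and sign in all of them, 16 lost the call in at least 1, 1 gained it (Tox, CD4+ TEM against memory cells) and 4 uncalled ones changed sign; no called one did. The 4 were Id2 in CD4+ TEM against memory cells (0.48 when its probe sets were averaged; -0.08 to 0.06 on leaving out arrays) and in the CD4+ change minus the CD8+ change (-0.05; -0.06 to 0.40), Zeb2 in CD4+ memory against naïve CD4+ cells (0.22; -0.29 to 0.14), and Id3 in the CD4+ change minus the CD8+ change (-0.21 to 0.10 on leaving out arrays). Of 70 results of named list and marker genes, 59 kept their call in all alternatives and 11 lost it in at least 1. The count of called genes among the 7 was 3 under the filter on variation for CD4+ memory against naïve CD4+ cells, which left out Id3 and the brightest Id2 probe set. For CD4+ TEM against memory cells it was 1 (Zeb2) when only the arrays compared were fitted, and 1 to 3 on leaving out arrays, with 1 (Bach2) without either CD4+ TEM array. With only the arrays compared, Bach1, Klf2, S1pr1, Eomes and Cd8a also lost their calls there (adjusted p 0.0748 to 0.156). For naïve CD8+ against naïve CD4+ cells it was 0 with the replicate block, the averaged probe sets or the filter on variation, and 0 to 2 on leaving out arrays. The cause of the other changes was not tested. Where an array was left out, the remaining one was assumed to vary like the other groups.

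Deviations of same-numbered replicates did not correlate (r of -0.022 to 0.026 over 10 pairs of groups), so the numbers were not taken to pair the samples. With the replicate block the count was 6 in CD4+ TEM and 6 in CD8+ TEM against naïve cells, 5 in CD4+ memory against naïve CD4+ cells, 3 in CD4+ TEM against memory cells, 2 for the CD4+ minus the CD8+ change and 2 for CD4+ TEM against CD8+ TEM cells. Over all probe sets, fits to other arrays or models gave 6777 to 11816 calls in CD4+ TEM against naïve CD4+ cells (10571 with all arrays), 5159 to 9506 in CD4+ memory against naïve CD4+ cells (8885), 130 to 2071 in CD4+ TEM against memory cells (1574, and 130 with only the arrays compared), 1145 to 4519 for the CD4+ minus the CD8+ change (3545), 3473 to 8385 in naïve CD8+ against naïve CD4+ cells (7207) and 554 to 3258 in CD4+ TEM against CD8+ TEM cells (2443). For CD8+ TEM against naïve CD8+ cells, which is not in this list, 14381 probe sets were called with all arrays. There were 14051 with the replicate block and 14235 with only the arrays compared. The dim filter removed 7 and the variation filter 7 of the 18 member probe sets, so these have no value there. With 2 arrays a group, the precision is low, and Zeb2 is dim.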

Other observations

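The 15 genes associated with follicular helper cells, the fate that BCL6 is known for, split. In CD4+ TEM against naïve CD4+ cells 3 were higher and 5 lower, in CD8+ TEM against naïve CD8+ cells 5 higher and 3 lower, and in CD4+ memory against naïve CD4+ cells 2 higher and 7 lower (medians -0.13, 0.38 and -0.79). Il6ra, a chain of the interleukin-6 receptor, read 3.33 and 3.24 in CD4+ TEM, 7.23 and 6.87 in CD4+ memory and 2.86 and 2.81 in CD8+ TEM cells, against 10.54 and 10.48 in naïve CD4+ and 9.60 and 9.95 in naïve CD8+ cells. It fell by 7.22 in CD4+ TEM (limma adjusted p = 7.38e-07), 3.46 in CD4+ memory (adjusted p = 1.56e-05) and 6.94 in CD8+ TEM cells (adjusted p = 5.8e-07). Btla, an inhibitory receptor, fell by 2.87 in CD4+ TEM cells (adjusted p = 2.02e-05). Il21, a cytokine of follicular helper cells, rose by 3.81 in CD4+ TEM (adjusted p = 6.95e-05) and 4.30 in CD8+ TEM cells (adjusted p = 2.4e-05), and Il4 by 3.74 in CD4+ TEM cells (adjusted p = 0.000944).

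Between CD4+ TEM and memory cells, 3 of these genes were higher and 3 lower. Maf, which encodes the factor c-MAF, read 8.69 and 8.86 in CD4+ TEM and 3.24 and 3.74 in CD4+ memory cells, against 8.58 and 8.75 in naïve CD4+ cells, and was higher in TEM than in memory cells by 5.28 (SE 0.39, adjusted p = 0.000569). Il21 was higher by 3.74 (adjusted p = 0.000663). Ikzf2, which encodes Helios and was listed as a Treg marker, read 10.70 and 10.69 in CD4+ TEM and 8.31 and 8.41 in CD4+ memory cells, against 7.90 and 7.87 in naïve CD4+ cells. It was higher in TEM than in memory cells by 2.33 (adjusted p = 0.000249). Foxp3, which defines Treg cells, had group means of 4.70 in CD4+ TEM and 4.79 in CD4+ memory cells, against 5.98 in naïve CD4+ cells. Ikzf4, also listed, had group means of 9.89, 10.09 and 8.25 in that order. Of the 3 Treg markers, 2 were higher and 1 lower in CD4+ TEM than in naïve CD4+ cells. Between CD4+ TEM and memory cells, 1 was higher and 0 lower.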
